A study of Mus musculus with 2 samples.

Results

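Enteric glia are the support cells of the gut's own nervous system. They descend from the neural crest, surround the neurons of the enteric ganglia, and run with nerve fibres into the muscle and the mucosa. The 9 genes described here are commonly used to mark these cells, and they were taken by symbol from a list: Sox10, Gfap, S100b, Fabp7, Ngfr, Gfra2, Gfra3, Foxd3 and Cdh19. Each symbol matched 1 of the 43346 Ensembl genes in both gene tables. The rule used no measured value.

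Polyadenylated RNA of the sigmoid colon was sequenced from 1 adult female C57BL/6J mouse, 10 weeks old. There were 2 technical libraries of this 1 biological replicate, numbered here as the technical replicates are in the labels. The labels date library 2 to 2015 and give no date for library 1. Both libraries form 1 group with no treatment and no second animal, so each ± below is an SD over n = 2 technical libraries and covers no variation between mice. The sample was whole tissue, in which fewer cells of a type and less RNA per cell cannot be told apart.

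The Ensembl genes of the tables held 25843064 expected counts in library 1 and 20681574 in library 2. An expected count is an estimated read count, since a read that fits more than 1 transcript is divided among them. TPM is a level corrected for transcript length and scaled to 1 total per table. Of the TPM of all Ensembl genes, nuclear protein-coding genes held 31.3% in library 1 and 75.3% in library 2. Genes of the mitochondrial chromosome held 44.2% and 12.6%. Differences between the libraries are therefore read from scaled counts rather than from TPM. Markers of colon tissue were present in both libraries: the 8 epithelium markers summed to 3704 and 14237 TPM and the 6 smooth muscle markers to 327 and 4791 TPM.

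These were rare transcripts. The 9 genes together had 509 expected counts in library 1 and 744 in library 2, or 7.47 and 20.5 TPM (14.005 ± 9.24, SD, n = 2). Over nuclear protein-coding genes alone the sums were 23.8 and 27.3 TPM. The sums held opposite differences in their parts. Cdh19 made up 56.9% of the summed TPM in library 1 and 9.64% in library 2. Without Cdh19 the other 8 genes had 134 and 638 counts, and 3.22 and 18.6 TPM. In library 1 the members stood above 31.5 to 67.4% of nuclear protein-coding genes by TPM, and in library 2 above 34.3 to 48.0%.

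**Figure D1:**
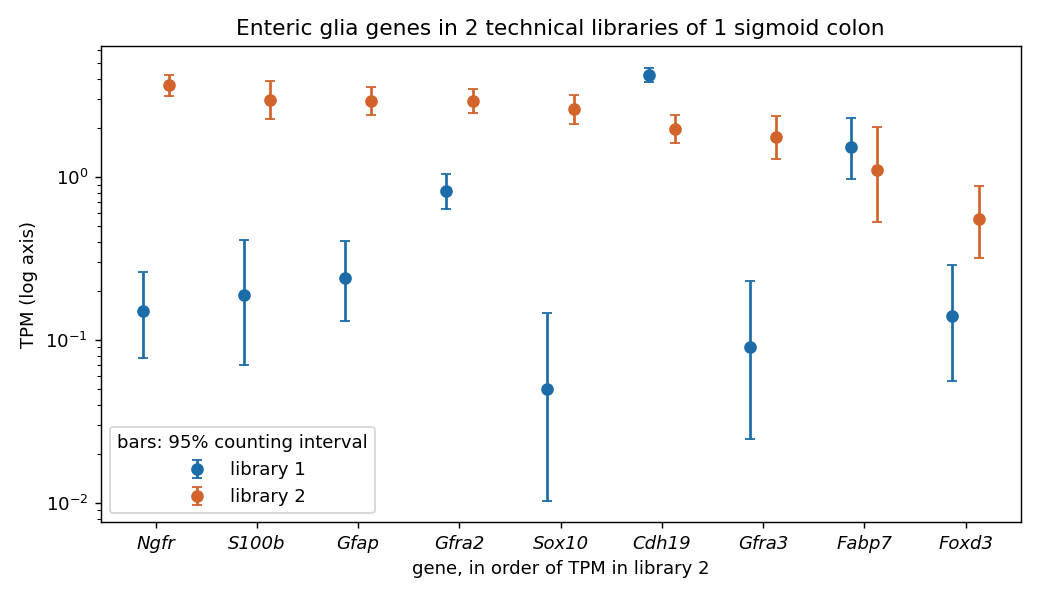
TPM of each gene (log axis) in library 1 and library 2, ordered by the level in library 2; bars are 95% intervals of the count and cover counting error only. Cdh19 and Fabp7 have the higher point in library 1, and the other 7 genes have it in library 2.

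The order of the levels differed between the libraries. In library 1 Cdh19 came first at 4.25 TPM, followed by Fabp7 at 1.54 and Gfra2 at 0.82, and the remaining 6 genes lay between 0.05 and 0.24 TPM. Counting intervals separated Cdh19 from Fabp7 and Gfra2 from Gfap, and those of every other pair of neighbours in that order overlapped. In library 2 Ngfr came first at 3.66 TPM and Foxd3 last at 0.55, with no pair of neighbours separated by its intervals. Cdh19 ranked 6 of 9 there, and Sox10, last in library 1, ranked 5.

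The libraries were compared by counts, which asks how well 2 technical libraries of 1 tissue match for these genes. Counts were scaled by TMM, a factor that assumes most genes are equal, and the ratio is given as log2 of library 2 over library 1. A gene passed with a Benjamini-Hochberg adjusted p under 0.05 in a two-sided exact binomial test over 15705 genes and a difference of at least 2-fold. The test compares these libraries and covers counting error only. Of the 9 genes, 5 were higher in library 2, 2 were lower and 2 did not pass. Over all genes tested, 37.0% were higher in library 2 and 28.2% lower, or 65.2% in either direction, so a share of the 9 genes this large was near the background. The median log2 ratio was 2.42 over the 9 genes and 0.12 over all genes tested. Since 65.2% of the genes tested passed, the assumption of TMM was not met, and the zero of the ratios depends on the scaling. All 9 had a mean expected count of at least 10, the minimum for testing. Sox10, S100b, Gfra3 and Foxd3 were under 10 in library 1 and entered through library 2. The list genes Plin1, Cidec, Cfd, Gfra4, Entpd2, Nrtn, Artn, Dct and Pmel, read below, did so too. Sox2 was under 10 in library 2 and entered through library 1.

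Among the transcription factors, Sox10 is the factor that neural crest cells need to become and stay glia (ENSMUSG00000033006.9, chromosome 15, 79154908 to 79165240, minus strand, GRCm38). It had 3 counts in library 1 and 95 in library 2, or 0.05 and 2.61 TPM (1.33 ± 1.81, SD, n = 2). The counting intervals were 0.619 to 8.77 and 76.9 to 116 counts, so they did not overlap. Its ratio by scaled counts was 4.34 on the log2 scale (95% interval 2.96 to 6.86, adjusted p = 5.33e-19 in the exact binomial test). This was the highest ratio of the 9 genes only before a trend over all genes with GC content, the share of G and C bases, was taken off. With that trend taken off Sox10 was at -1.04 and did not pass (adjusted p = 0.322, exact binomial test), and S100b was highest. The 3 counts of library 1 make the size of this ratio imprecise, as its interval shows.

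Foxd3, a forkhead factor of neural crest progenitors, is encoded in 1 exon (ENSMUSG00000067261.4, chromosome 4, 99656299 to 99658622, plus strand). It had 7 and 17 counts, or 0.14 and 0.55 TPM (0.345 ± 0.290). The interval of its log2 ratio ran from -0.49 to 2.36 around 0.79, and it did not pass (adjusted p = 0.235, exact binomial test). A difference in Foxd3 was not detectable at this depth by scaled counts. An annotated microRNA, Gm23366, lies within the Foxd3 exon on the same strand. No other member shared exon sequence with another annotated gene. By gene span alone, S100b overlapped Dip2a and Gfap overlapped Gm26668, each on the opposite strand. Cdh19 overlapped Gm38255 and Gm36944 on its own strand. An effect of these overlaps on the counts was not tested.

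Of the proteins of the glial cytoplasm, Gfap is the intermediate filament of astrocytes and of part of the enteric glia (ENSMUSG00000020932.10, chromosome 11, 102887336 to 102900912, minus strand). Its counts were 14 and 104, and its levels 0.24 and 2.94 TPM (1.59 ± 1.91). Gfap was higher in library 2 by 2.42 on the log2 scale (1.65 to 3.38, adjusted p = 7.26e-13, exact binomial test).

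S100b, a calcium-binding protein of glia (ENSMUSG00000033208.7, chromosome 10, 76253853 to 76261159, plus strand), had 6 and 56 counts, or 0.19 and 2.99 TPM (1.59 ± 1.98). It was higher in library 2 by 2.69 (1.58 to 4.30, adjusted p = 2.72e-08, exact binomial test). Fat cells make S100b too, and of the 9 adipocyte markers 4 were higher in library 2, 1 was lower and 4 did not pass. The shares over all genes tested were 37.0% higher and 28.2% lower. The adipocyte markers summed to 175 and 414 TPM, or to 558 and 549 with TPM rescaled to the nuclear protein-coding total, and their summed counts had a log2 ratio of -0.27. No adipocyte marker was at 0 in both libraries, and their part in the S100b difference was not tested. Plin1, which coats lipid droplets, had 1 and 126 counts (log2 ratio 5.97, higher). Adipoq, which encodes adiponectin, had 247 and 429 (0.37, not passing). Both were chosen after their values were seen, and neither passed with the GC trend taken off.

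Fabp7, the brain-type fatty acid binding protein of glia and their progenitors (ENSMUSG00000019874.7, chromosome 10, 57784881 to 57788450, plus strand), went the other way. It had 23 and 10 counts, or 1.54 and 1.11 TPM (1.33 ± 0.304). By scaled counts it was lower in library 2, with a log2 ratio of -1.59 (-2.87 to -0.50, adjusted p = 0.00278, exact binomial test). By TPM the ratio was only -0.47.

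Of the receptors, Ngfr encodes the p75 neurotrophin receptor of glia and Schwann cells (ENSMUSG00000000120.6, chromosome 11, 95568818 to 95587735, minus strand). It had 12 and 172 counts, or 0.15 and 3.66 TPM (1.91 ± 2.48), a log2 ratio of 3.36 (2.57 to 4.39, adjusted p = 7.24e-28, exact binomial test). Gfra2 and Gfra3 are surface co-receptors for the growth factors neurturin and artemin, which signal through the kinase Ret, and enteric neurons make them too. Gfra3 (ENSMUSG00000024366.7, chromosome 18, 34689898 to 34720387, minus strand) had 4 and 46 counts, or 0.09 and 1.77 TPM (0.93 ± 1.19). Its log2 ratio was 2.94 (1.64 to 5.03, adjusted p = 2.03e-07, exact binomial test). Gfra2 (ENSMUSG00000022103.9, chromosome 14, 70890120 to 70979838, plus strand) had 65 and 138 counts, or 0.82 and 2.93 TPM (1.88 ± 1.49). At a log2 ratio of 0.65 (0.22 to 1.11) its adjusted p was 0.00271 in the exact binomial test, but it missed the 2-fold threshold.

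Cdh19, a cadherin of nerve-associated glia and Schwann cell precursors (ENSMUSG00000047216.8, chromosome 1, 110888326 to 110977584, minus strand), was the member with the most counts in library 1. It had 375 and 106 counts, or 4.25 and 1.98 TPM (3.12 ± 1.61). Its log2 ratio was -2.25 (-2.58 to -1.94, adjusted p = 8.38e-56, exact binomial test). By scaled counts the intervals of Cdh19 and Sox10 lay on opposite sides of 0. With the GC trend taken off both signs turned and neither gene passed (0.12 for Cdh19, adjusted p = 0.55, exact binomial test).

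The direction of the difference went with base composition. GC content is the share of G and C bases in a gene's transcripts. The lower genes Cdh19 and Fabp7 had the lowest GC content of the 9, at 37.4 and 41.5%. Those that were higher in library 2 ranged from 48.3% (S100b) to 61.7% (Sox10). Gfra2, at 53.3%, lay inside that range and did not pass. Foxd3, at 65.1%, had the highest and did not pass. The median over all genes tested was 49.9%, above the value of S100b. Among those genes 1.17% had a lower GC content than Cdh19, and 1.51% a higher one than Sox10. The first 120 bases of the coding sequence of 4 members, from GENCODE M21 transcripts on GRCm38, show this contrast, with the start codon in capitals:
Sox10: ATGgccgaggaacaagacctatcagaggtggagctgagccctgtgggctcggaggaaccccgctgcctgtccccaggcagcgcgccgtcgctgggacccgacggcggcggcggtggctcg
Ngfr: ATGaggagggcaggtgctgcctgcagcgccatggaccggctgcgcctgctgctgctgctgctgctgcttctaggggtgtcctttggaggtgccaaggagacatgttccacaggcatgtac
Fabp7: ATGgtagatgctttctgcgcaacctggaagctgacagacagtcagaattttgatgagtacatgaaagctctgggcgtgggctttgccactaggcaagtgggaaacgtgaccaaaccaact
Cdh19: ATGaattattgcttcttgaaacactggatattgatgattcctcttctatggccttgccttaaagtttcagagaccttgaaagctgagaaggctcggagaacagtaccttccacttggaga

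These stretches held 71.7% G and C in Sox10, 62.5% in Ngfr, 49.2% in Fabp7 and 41.7% in Cdh19. They start at base 288 of the Sox10 transcript, 178 of Ngfr, 129 of Fabp7 and 230 of Cdh19. Whole coding sequences gave the same order, at 63.3, 61.9, 45.7 and 41.2%. The coding sequence of Foxd3 held 72.2% and that of S100b 53.6%.

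**Figure D2:**
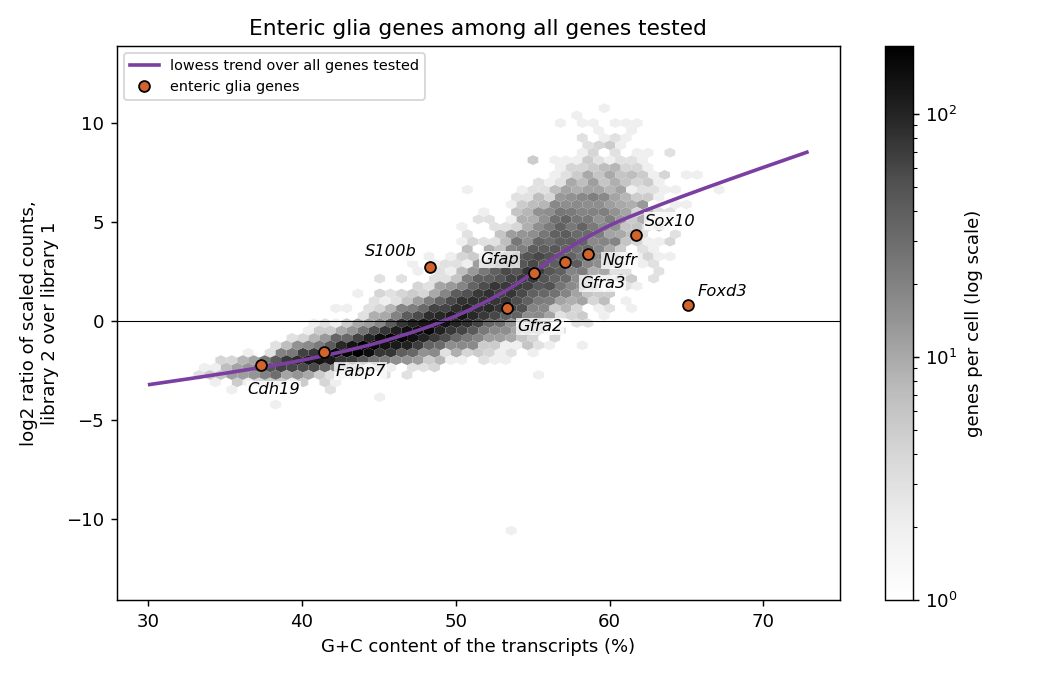
Log2 ratio of scaled counts, library 2 over library 1, against the GC content of the transcripts; grey cells are all genes tested, shaded by their number, the line is their lowess trend and the points are the 9 glial genes. S100b lies above the line and Foxd3 far below it, and Cdh19, Fabp7 and Gfap lie on it.

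The ratio moved with GC content over all genes. Its median was -2.23 over the 805 genes tested below 40% GC, -0.52 over 4151 genes from 45 to 50%, and 3.52 over 2989 genes from 55 to 60%. At the GC content of Sox10 the trend of all genes gave 5.38, at that of Ngfr 4.22, and at that of Cdh19 -2.36. With the trend taken off, 1 of the 9 genes was higher in library 2, 1 was lower and 7 did not pass. Over all genes 12.4% were then higher and 11.1% lower, so the shares of the 9 genes were near the background. The ratios left were -1.04 for Sox10, -0.87 for Ngfr, -0.61 for Gfra3, -0.035 for Gfap, 0.17 for Fabp7 and 0.12 for Cdh19, none of which passed. Gfra2 was left at -0.88 (adjusted p = 0.000261, exact binomial test), under 2-fold.

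The 2 genes that passed after the trend was taken off were S100b and Foxd3. S100b was left at 2.98 (adjusted p = 8.79e-10, exact binomial test), slightly above its ratio by scaled counts, since genes of its GC content had a trend of -0.29. The shares over all genes were 12.4% higher and 11.1% lower after the trend was taken off. Of the 9 adipocyte markers 3 were also higher then, none was lower and 6 did not pass. Higher were Fabp4, a fatty acid binding protein (2.19), Cfd, the secreted protease adipsin (3.13), and Cidec, a lipid droplet protein (1.81). Cidec was chosen after its value was seen. Car3 and Pparg did not pass with the trend taken off, at -0.47 and -0.14. By scaled counts Car3 was lower in library 2 (4122 and 2301 counts, -1.27) and Pparg did not pass (0.01). Staying higher was not particular to fat. Of the 6 smooth muscle markers 5 were also higher after the trend was taken off and 1 did not pass. Foxd3 turned to -5.58 (adjusted p = 4.51e-09, exact binomial test), where the trend gave 6.38. Only 40 of the genes tested had a GC content above that of Foxd3, so the trend rests on few genes there.

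**Figure D3:**
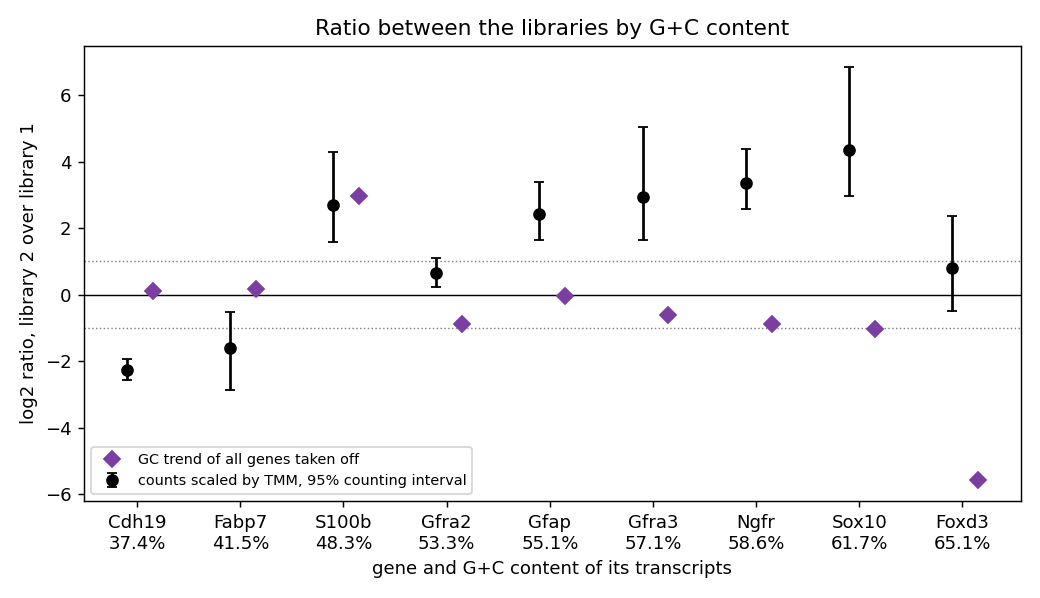
Log2 ratio of library 2 over library 1 for each gene, ordered by GC content; circles with 95% counting intervals are scaled counts, diamonds have the GC trend of all genes taken off, and dotted lines mark 2-fold. The diamonds of Cdh19, Fabp7 and Gfap lie near 0, that of S100b stays at 2.98 and that of Foxd3 falls at -5.58.

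For transcripts, 6 of the 9 genes had 1 annotated transcript in the deposited tables, and Gfap, Cdh19 and Fabp7 had more. Gfap had 3, of which 2 coding forms carried its reads. The form ENSMUST00000067444.5, with a coding sequence of 1290 bases, took 56.7% of the gene in library 1 and 91.5% in library 2 by the authors' shares. The form ENSMUST00000077902.4, with 1284 bases, took 43.3 and 8.50%. Their GC contents were 55.5% and 52.2%, and the shares were not corrected for the GC trend. Library 1 gave 8 and 6 counts to these forms, and the 95% Wilson interval of the share of counts of the first was 32.6 to 78.6%, against 84.4 to 95.4% in library 2. Of the other two genes, the first-listed form took 98.1 and 100% of Cdh19 and 92.2 and 100% of Fabp7.

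The closest relatives of the members were set beside them by TPM, with log2 ratios of scaled counts in parentheses. Among the 4 GFRα genes, Gfra1, the co-receptor for GDNF, was highest in library 1 at 1.68 TPM and at 3.65 in library 2 (-0.42, not passing), while Gfra4 was at 0.16 and 5.44 (3.29, higher). Sox9, the SoxE factor that crypt epithelium also makes, was at 20.8 and 20.0 TPM (-1.23, lower) against 0.05 and 2.61 for Sox10. Cdh19 ranked below Cdh11, a cadherin of connective tissue, which was at 9.97 and 8.80 TPM (-1.35, lower). Fabp2, the absorptive cell form, was at 252 and 322 TPM (-0.80, not passing), above Fabp7 in both libraries. Vim and Des, the filaments of connective tissue and muscle, were at 47.9 and 166 TPM (0.10, not passing) and at 6.49 and 522 TPM (5.68, higher) against 0.24 and 2.94 for Gfap. With the GC trend taken off Sox9 was still lower and Des still higher, Cdh11 and Fabp2 did not pass, and Gfra1 (-1.37), Gfra4 (-1.62) and Vim (-1.34) were lower in library 2.

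A further 14 genes of enteric glia summed to 97.1 and 243 TPM, of which Erbb3 alone gave 57.3 and 139, and their summed counts had a log2 ratio of -0.06. Of these 4 were higher in library 2, 7 were lower and 3 did not pass, and the median log2 ratio was -0.86. The shares over all genes tested were 37.0% higher and 28.2% lower. Entpd2, the surface enzyme of enteric glia that degrades ATP, had 4 and 610 counts, or 0.10 and 24.9 TPM (log2 ratio 6.65, 5.46 to 8.70). The voltage-gated channel gene Scn7a had 1919 and 638 counts (-2.02), and L1cam, an adhesion molecule of nerves, 236 and 1947 (2.61). Erbb3, the neuregulin receptor, had 8045 and 11621 counts and did not pass (0.10). The 4 genes that were higher had a GC content of 52.6 to 57.9%, and the 7 that were lower had 40.2 to 50.5%. Those 2 groups did not overlap, but the 3 genes that did not pass had 49.6 to 51.2%, partly inside the lower range. Over all genes tested the median log2 ratio was -1.57 from 40 to 45% GC and 3.52 from 55 to 60%. With the GC trend taken off, 2 were higher (Entpd2 at 2.75 and L1cam at 1.40), 3 were lower and 9 did not pass. The shares over all genes were then 12.4% higher and 11.1% lower. The lower ones of the 14 were Sox2, Kcna1 and Gpr37l1 (chosen after their values were seen). Gpr37l1, with 17 and 93 counts, turned from higher by scaled counts (1.99) to lower (-1.46). Sox2 and Kcna1 were lower both ways.

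**Figure D4:**
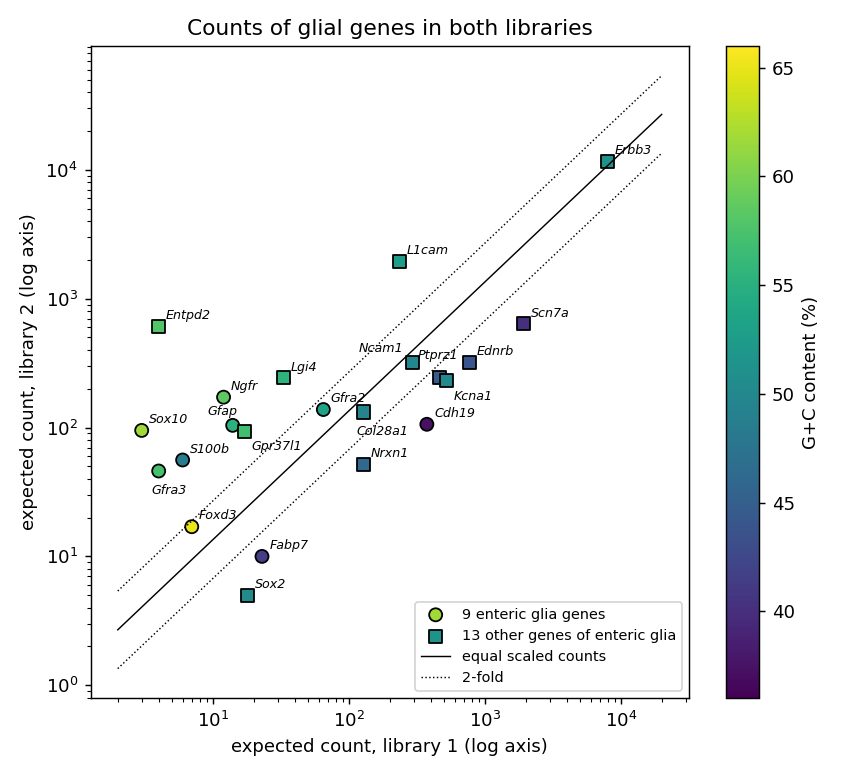
Expected counts in library 1 and library 2 (log axes) of the 9 genes (circles) and 13 of the 14 other genes of enteric glia (squares), coloured by GC content; the solid line marks equal scaled counts and the dotted lines 2-fold. Entpd2, Ngfr and Sox10 lie far above the lines, and Scn7a and Cdh19 below them.

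The ligands and partner receptors of Ngfr and the GFRα genes were read next. Of 15 such genes 12 could be tested, of which 5 were higher in library 2, 1 was lower and 6 did not pass (median log2 ratio 0.39). The shares over all genes tested were 37.0% higher and 28.2% lower. Ret, the shared signalling kinase, was at 1.25 and 4.03 TPM and did not pass (0.37). The ligand of Gfra2, Nrtn, had 0 and 23 counts, and that of Gfra3, Artn, had 6 and 41 (both chosen after their values were seen). Both were higher by scaled counts, but with the GC trend taken off Nrtn did not pass and Artn was lower (-2.50). Nrtn and Artn were under 10 counts in library 1 and met the minimum for testing through library 2. A count of 0 allows up to 3 counts. The receptor Sort1, which many cells make, was at 52.4 and 156 TPM. Pspn had 0 counts in both libraries. With the GC trend taken off 1 of the 12 was higher and 4 were lower, beside 12.4% and 11.1% of all genes.

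Markers of other cells that carry some of these genes were read beside them. The shares over all genes tested were 37.0% higher and 28.2% lower, or 12.4% and 11.1% with the GC trend taken off. Of the 10 markers of myelinating Schwann cells 7 could be tested, and 4 were higher and 0 lower, or 0 higher and 1 lower with the GC trend taken off. Among them were Pmp22, a myelin protein that many other cells make, at 261 and 402 TPM (-0.58, not passing), and Gjb1, a gap junction protein that epithelium also makes, with 49 and 747 counts (3.49, higher). Cnp, an enzyme of myelin, had 133 and 828 counts (2.20, higher), and neither Gjb1 nor Cnp passed with the GC trend taken off. Mbp, a myelin protein, had 669 and 1625 counts and did not pass (0.85), and Pmp2, a fatty acid binding protein of myelin, had 0 counts in both libraries. Of the 7 markers of central nervous system glia, Olig2 and Mog had 0 counts in both libraries and Olig1 had 0 and 1, while Aqp4, a water channel that colon epithelium makes, was at 283 and 173 TPM (-1.88, lower, but -0.10 and not passing with the GC trend taken off). Aldh1l1, a folate enzyme of astrocytes and of other tissues, had 51 and 2812 counts (5.34, higher, and 2.70 with the GC trend taken off), and Slc1a2, a glutamate transporter, had 35 and 28. Of the 6 melanocyte markers, which share Sox10 with glia, Tyr, Tyrp1 and Mlana had 0 counts in both. The others were Mitf, a factor that other cells also make, with 262 and 118 counts (-1.58, lower, but -0.15 and not passing with the GC trend taken off), Dct with 8 and 12, and Pmel, a protein of pigment granules, with 0 and 26. Pmel was called higher with and without the GC trend, but it met the minimum for testing through library 2 alone. Of the 13 enteric neuron markers 4 were higher, 4 lower and 5 did not pass, and they summed to 90.1 and 122 TPM. Rescaled to the nuclear protein-coding total the sums were 288 and 162, and the summed counts had a log2 ratio of -0.64. Vip, a relaxing neuropeptide, had 1757 and 726 counts, and Uchl1, a ubiquitin hydrolase of neurons, 11 and 288. The 4 higher neuron markers had a GC content of 54.3 to 60.4% and the 4 lower ones 38.4 to 45.9%. The trend over all genes tested ran the same way. With the GC trend taken off 0 neuron markers were higher and 2 were lower. The part of these cells in the glial differences was not tested.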

How the data were processed

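Per the text files beside the tables, the authors aligned reads to mm10 and quantified them with GENCODE M4; the sources used here do not name the aligner, the quantifier or the strand setting, which may differ between the libraries and could then affect ratios of genes with antisense partners. The deposited tables give expected counts, TPM and, per the file headers, the percent of each gene that a transcript takes. Symbols came from a table that matched 42462 of 43346 Ensembl genes. Positions, gene types, GC content (mean over transcripts weighted by TPM) and sequences came from GENCODE M21 on GRCm38, the same assembly with a later annotation; 99.7% of the genes tested had a GC value.

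Expected counts were rounded to whole numbers. With 1 library a side, edgeR's quasi-likelihood test has no residual degrees of freedom, so a two-sided exact binomial test was used on genes whose expected counts averaged at least 10 (TMM, edgeR 4.0.16; library 2 over library 1 was 1.35; prior count 0.5; scipy 1.17.1). Trends were lowess fits with a fraction of 0.2 (statsmodels 0.14.6), taken off the expected ratio. Intervals are 95%, exact Poisson for counts, exact binomial for ratios and Wilson for shares, and cover counting error only, since no molecular identifiers are named. The count test was tried on simulated Poisson counts in which most genes were equal and no GC trend was present. These libraries differ on both points, so that run does not show how the test behaves here. The trend fit was tried on a separate simulated straight trend. Alternatives used DESeq2 1.42.0 size factors, other filters, scalings and trends.

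The members, lists and alternatives, the GC trend included, were chosen with earlier results of these data known. The genes named were the members and, from each list, the 4 genes highest in mean TPM; list genes at 0 counts in both libraries could also be named, and others are marked as chosen after their values were seen. No gene was named for a similar pattern, since 2 libraries give none. Some genes that this rule takes, or that stand in the lists, are not reported here.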

Additional observations from a re-analysis of the deposited data

How the results depend on the processing

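The direction and the call held for all 9 genes with DESeq2 size factors, with the total of nuclear protein-coding genes as library size, with no filter on counts, with a prior count of 2 and with the length trend taken off. With the GC trend taken off, 8 of the 9 log2 ratios changed sign: Sox10 to -1.04, Gfap to -0.035, Fabp7 to 0.17, Ngfr to -0.87, Gfra2 to -0.88, Gfra3 to -0.61, Foxd3 to -5.58 and Cdh19 to 0.12. The numbers that passed became 1 higher and 1 lower, beside 12.4% and 11.1% of all genes. With a minimum of 50 for the mean count only 4 genes could be tested, of which 2 were higher and 1 was lower. By the ratio of TPM values, whose median over all genes tested was 1.24, Gfra2 (1.84) and Foxd3 (1.97) exceeded 2-fold and Fabp7 (-0.47) no longer did. The summed TPM of the 9 genes was 25.6 over nuclear protein-coding genes alone, and ranged from 7.47 to 20.5 when either library was left out. No paired analysis was possible because there is 1 group. Leaving out a library gave no ratio, since 1 library then remained. The depth limits Sox10, Gfra3, S100b and Foxd3 most, each with fewer than 10 counts in library 1.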
